A study of Rattus norvegicus with 6 samples.

Results

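The genes described here are the inflammatory caspases Casp1, Casp4 and Casp12, the pyroptosis pore Gsdmd, the necroptosis genes Zbp1, Ripk3 and Mlkl, and the death-receptor genes Fas and Casp8, together with Xaf1. They were chosen by name as cell-death genes linked to interferon and double-stranded RNA. All 10 genes had a row in the deposited gene table of 40154 genes and were among the 14852 genes with enough counts to be tested. Xaf1, an interferon-inducible antagonist of the caspase inhibitor Xiap, is spelled XAF1 in the table and was matched without regard to case.

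mRNA sequencing was performed on primary atrial fibroblasts from Sprague-Dawley rats aged 1 to 3 days, transfected with si-NC (the negative control siRNA) or si-GPD1L (siRNA against Gpd1l, which encodes a glycerol-3-phosphate dehydrogenase-like enzyme) and sequenced 24 h after transfection. Each group had 3 libraries, and in every library the labels give the treatment as atrial differentiation and the tissue as atrial muscle of the heart. Hearts were minced and digested with trypsin (the labels do not give the number of animals), and non-myocytes were separated from myocytes by their attachment during 1.5 h of preplating. The digit in each library name was read as a replicate number. The labels do not say whether the libraries came from separate cultures or whether the si-GPD1L digits stand for different siRNAs, so the p-values measure only the spread between these libraries, which may be technical.

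Inflammatory caspases and necroptosis kinases stand at the end of innate immune sensing. In pyroptosis, caspase-1 (activated by inflammasomes) or caspase-4 (the rodent protein is also called caspase-11 and responds to cytosolic lipopolysaccharide) cleaves gasdermin D, whose fragment forms pores in the plasma membrane. In necroptosis, the kinase RIPK3 is activated by RIPK1, by TRIF or by ZBP1, a sensor of Z-form nucleic acids, and phosphorylates the pseudokinase MLKL, which then permeabilizes the membrane. Death receptors such as Fas recruit caspase-8, which starts apoptosis and also restrains necroptosis, and several of these genes are known targets of interferon signaling.

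The sequences just before the transcription start are shown for Casp1 and Casp12, which lie in 1 gene cluster, and for Mlkl, Ripk3 and Xaf1, which rose in si-GPD1L. The windows were taken from RefSeq (build GRCr8), which held promoter sequences for 6 of the 10 genes (Casp1, Casp12, Mlkl, Ripk3, Fas and Xaf1). Each line gives the 100 bases before the start site, 5′ to 3′ on the gene's strand, and capitals mark a match to GAAANNGAA (a pair of interferon regulatory factor half-sites) or to TTCNNNGAA (the interferon-gamma activated site), searched on both strands. The windows lie at chr8:10872730-10872829 (plus strand, Casp1), chr8:10927088-10927187 (plus strand, Casp12), chr19:56213859-56213958 (minus strand, Mlkl), chr15:33262026-33262125 (minus strand, Ripk3) and chr10:57415835-57415934 (plus strand, Xaf1).
Casp1: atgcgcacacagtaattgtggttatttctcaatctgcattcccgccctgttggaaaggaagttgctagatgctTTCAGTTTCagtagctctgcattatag
Casp12: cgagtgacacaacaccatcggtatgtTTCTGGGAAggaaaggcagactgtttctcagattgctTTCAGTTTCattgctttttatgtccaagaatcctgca
Mlkl: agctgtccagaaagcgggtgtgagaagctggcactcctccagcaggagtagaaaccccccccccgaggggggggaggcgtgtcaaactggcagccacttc
Ripk3: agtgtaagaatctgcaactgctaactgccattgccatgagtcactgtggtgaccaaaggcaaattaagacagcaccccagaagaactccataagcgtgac
Xaf1: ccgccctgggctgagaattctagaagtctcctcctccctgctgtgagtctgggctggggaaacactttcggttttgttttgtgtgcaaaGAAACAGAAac
The search covered 300 bases per gene, from 250 before the start to 50 after it. The same 9 letters, TTCAGTTTC, which read on the opposite strand match GAAANNGAA, began 27 bases before the start of Casp1 and 37 bases before that of Casp12. Casp12 also held TTCTGGGAA, a match to TTCNNNGAA, 74 bases before its start. Fas matched GAAANNGAA with TTCTCTTTC, 38 bases after its start, and Xaf1 with GAAACAGAA, 11 bases before its start. No match was found in the windows of Mlkl and Ripk3. Of all 33469 promoter windows of this length, 9.713% held GAAANNGAA and 8.874% held TTCNNNGAA, and the 2 motifs can share bases. These matches describe letters and do not show a binding site.

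The 6 libraries held between 16892255 and 20149732 counts, and the biological coefficient of variation was 0.0894, so that counting error was the larger part of the variance below about 125 counts. Gpd1l, the targeted gene, had normalized counts (counts scaled to the mean library size) of 262, 332 and 313 in si-NC and 220, 208 and 302 in si-GPD1L. The library labelled si-GPD1L replicate 3 lay inside the si-NC range. The log2 fold change of Gpd1l was -0.31 ± 0.15 (SE, n = 3 per group, edgeR quasi-likelihood test, Benjamini-Hochberg adjusted p = 0.234), and the exact two-sided permutation test gave p = 0.2, where the smallest p that 3 against 3 libraries allow is 0.1. All samples were kept in the group their labels give, and 240 of the 14852 tested genes passed both of the study's thresholds, an adjusted p under 0.05 together with a log2 fold change beyond 1 in either direction.

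All 10 fibroblast markers examined were present, with Col1a1 alone holding 3.39% to 4.99% of all counts. Their sum was 1399578 to 1752191 normalized counts in the control libraries and 1670023 to 1764250 in the si-GPD1L libraries. Of the 10, Dcn and Lum fell (log2 fold changes of -0.66 and -0.77, edgeR adjusted p = 0.0129 and 0.00580). The share of all tested genes that fell at an adjusted p under 0.05 was 2.33%. Macrophages are rich in several of the genes described here, and their 12 markers were all detected, with summed normalized counts of 3003 to 3253 in the control libraries and 2562 to 3727 in the si-GPD1L libraries. None of the 11 tested macrophage markers passed an adjusted p of 0.05 by edgeR's quasi-likelihood or exact test or by DESeq2, and 0 had an unadjusted p under 0.05. Of 10 endothelial markers, 9 were tested and 4 rose (Pecam1, Cdh5, Tie1 and Plvap). At the same threshold, an adjusted p under 0.05, 4.03% of all tested genes rose. The summed level of the endothelial list was between 1803 and 2280 in the control libraries and between 2472 and 2618 in the si-GPD1L libraries. The 10 cardiomyocyte markers summed to 34444 to 35895 in the control libraries and 31187 to 33994 in the si-GPD1L libraries. Of these markers, 0 were called by edgeR's quasi-likelihood test and 0 by the other tests. At an unadjusted p under 0.05 there were 5 (2 higher and 3 lower), beside 3324 of all 14852 tested genes. All 6 T and NK cell markers had at most 3 counts in every library, with Cd3e, Nkg7 and Prf1 at 0 in each. The part of other cells in the values below was not tested, and in bulk RNA fewer cells of a type and less RNA per cell cannot be told apart.

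Expressed per length as deposited TPM, the 10 genes covered a wide range in the si-NC cells. Casp4 was highest at 160 ± 17.8 TPM (SD, n = 3), above 93.9% of the tested genes. Casp12 followed at 86.4 TPM and Gsdmd at 62.1 TPM. Mlkl at 29.0 TPM and Ripk3 at 26.2 TPM were close to each other, although their si-NC ranges did not overlap. Fas at 7.75 TPM and Casp8 at 7.31 TPM were neighbours whose si-NC ranges overlapped, and Xaf1 lay below them at 4.11 TPM. Casp1 was at 1.33 TPM and Zbp1 at 0.0457 TPM, so the inflammatory caspase of the canonical inflammasome was far below the other 2 members of its genomic cluster. In si-GPD1L, Xaf1 stood at 43.1 TPM, between Mlkl (47.0 TPM) and Ripk3 (40.4 TPM), and the ranges of these 3 genes overlapped each other. The other 9 genes kept their order there, with Casp4 at 147, Casp12 at 109, Gsdmd at 87.1, Fas at 9.10, Casp8 at 8.77, Casp1 at 1.57 and Zbp1 at 0.810 TPM, and the ranges of Fas and Casp8 and of Casp1 and Zbp1 overlapped.

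**Figure D1:**
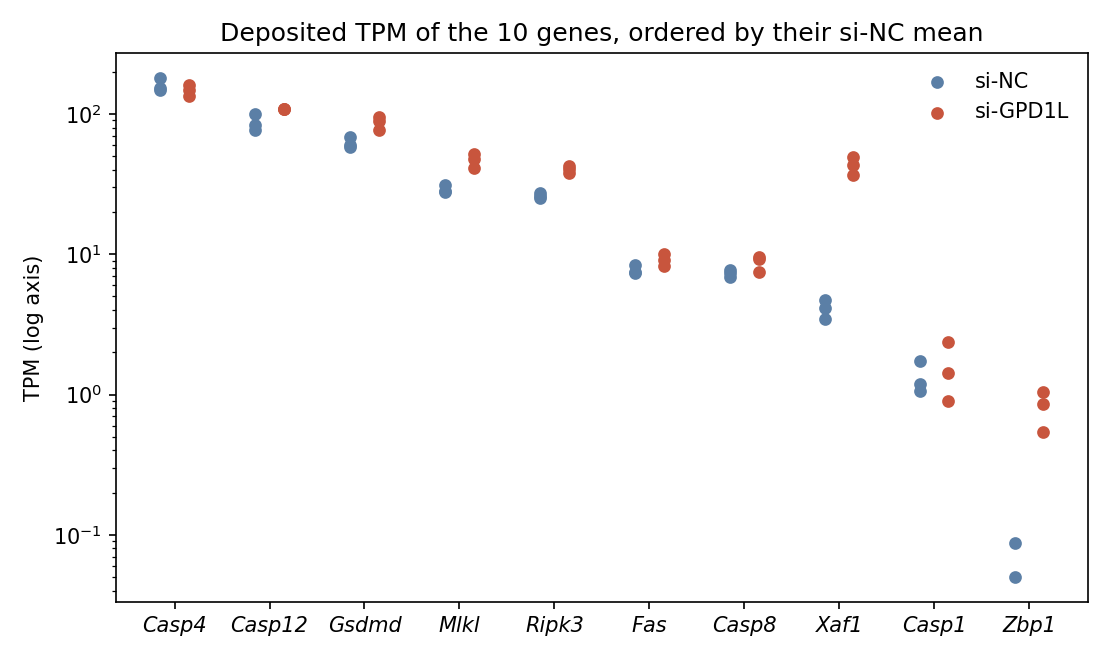
TPM of the 10 genes on a log axis, with 1 point per library (blue si-NC, red si-GPD1L), ordered by the si-NC mean. Casp4, Casp12 and Gsdmd lie at the top and Casp1 and Zbp1 at the bottom in both groups, Xaf1 moves up to the level of Mlkl and Ripk3 in si-GPD1L, and the si-NC library of Zbp1 that is at 0 TPM cannot be drawn on a log axis.

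Between the groups, 5 of the 10 genes (Xaf1, Zbp1, Mlkl, Ripk3 and Gsdmd) rose in si-GPD1L at an adjusted p under 0.05, and 0 fell. The share of all tested genes that rose at this threshold was 4.03%, and the share that fell was 2.33%. These 5 were also the only ones of the 10 with an unadjusted p under 0.05, and DESeq2 and edgeR's exact test called the same 5. Xaf1 and Zbp1 passed both thresholds, which 1.48% of all tested genes did in that direction. In each of the 5 genes every si-GPD1L library lay above every si-NC library, a pattern seen in 15.1% of all tested genes. The log2 fold change was above 0 in 9 of the 10 genes, with Casp4 the exception, and its median was 0.32, against -0.0049 over all tested genes. Zbp1 entered the test only through its si-GPD1L libraries, so that its place among the genes that rose is in part set by the filter on low counts. Without the library labelled si-GPD1L replicate 3, the same 5 genes were called.

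**Figure D2:**
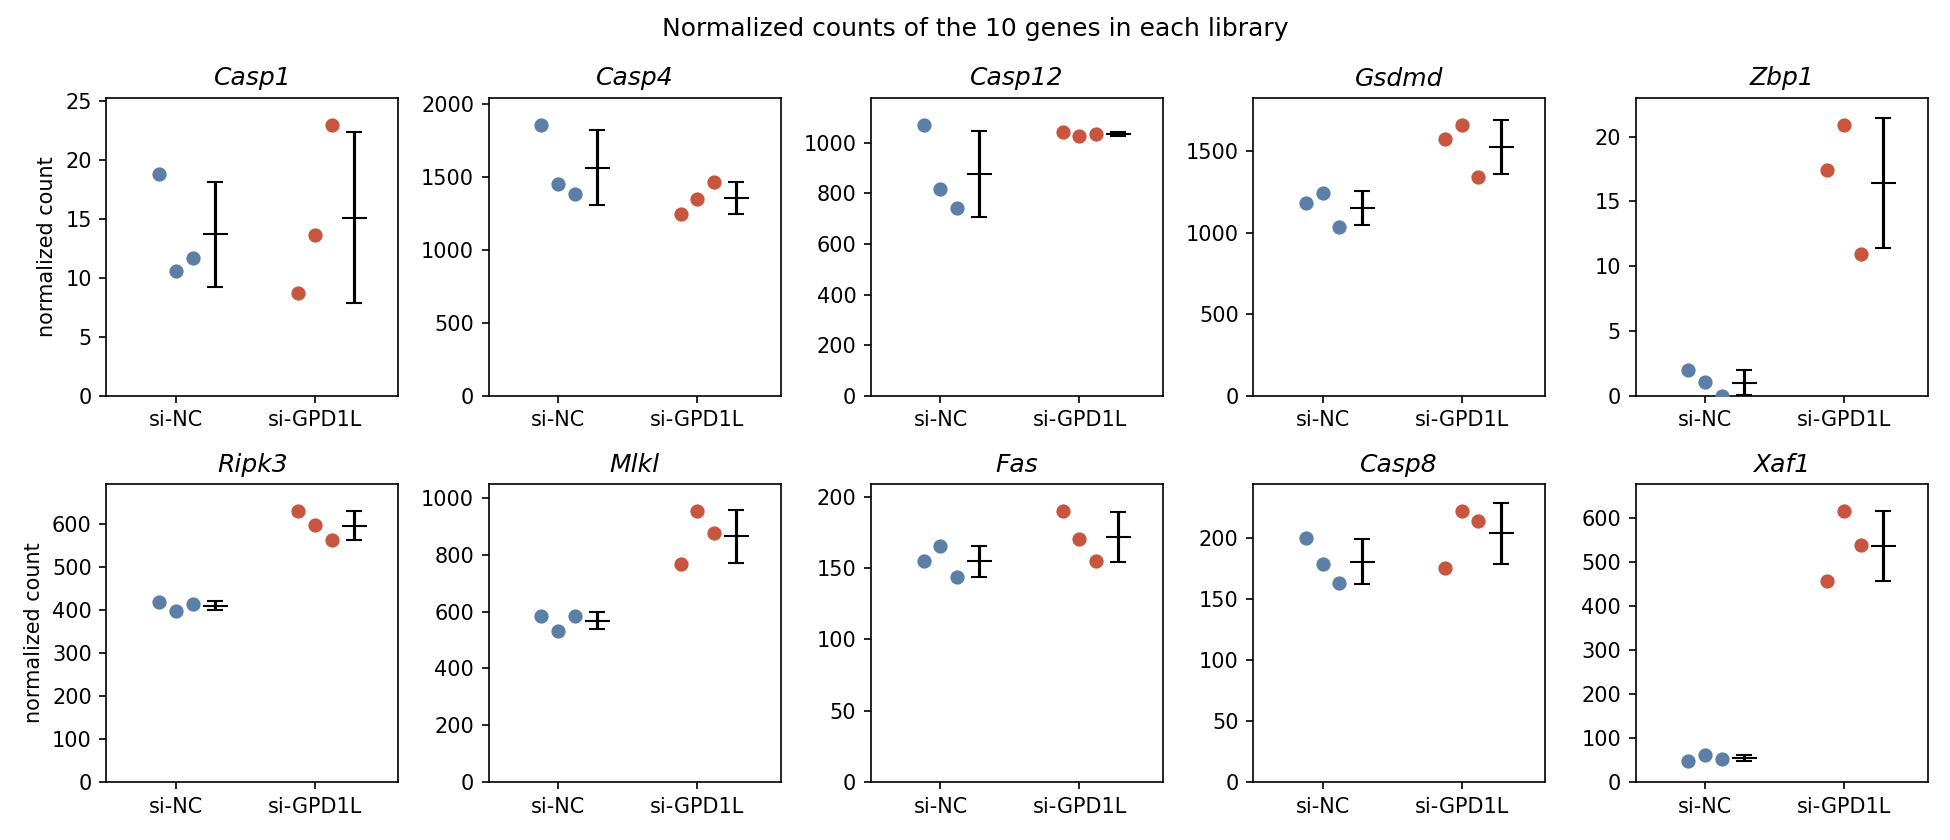
Normalized counts of the 10 genes, with 1 point per library (blue si-NC, red si-GPD1L) and bars for the mean ± SD of the 3 libraries to their right. The groups are apart for Gsdmd, Zbp1, Ripk3, Mlkl and Xaf1 and overlap for Casp1, Casp4, Casp12, Fas and Casp8.

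**Figure D3:**
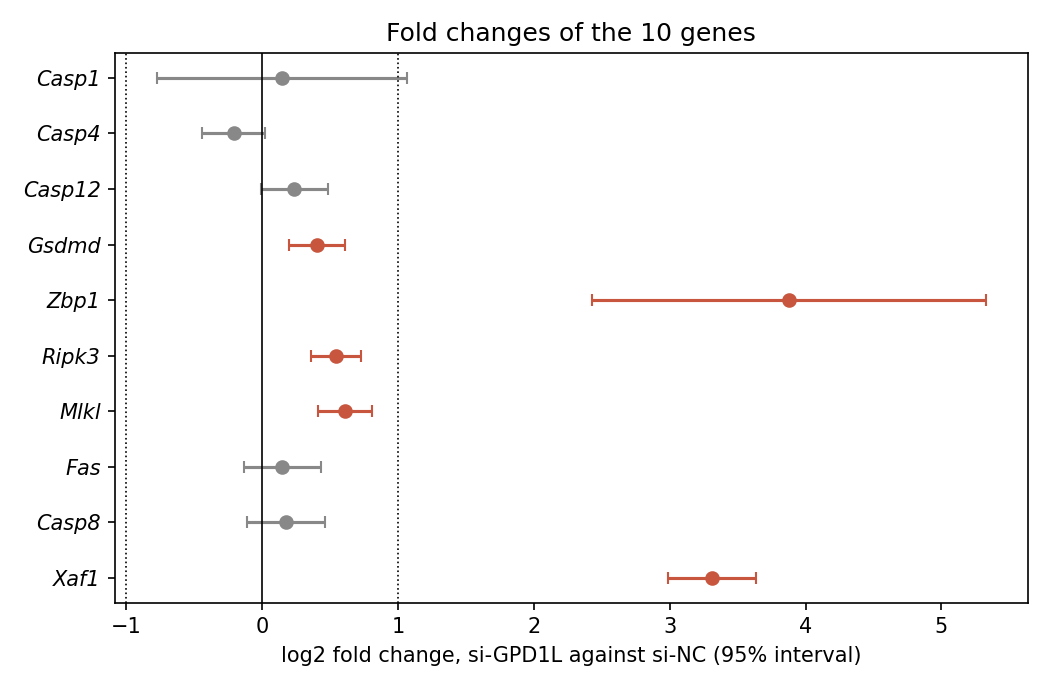
Log2 fold changes of the 10 genes with 95% intervals from edgeR's quasi-likelihood fit, in red where the adjusted p was under 0.05, with dotted lines at -1 and 1. The intervals of Gsdmd, Ripk3 and Mlkl lie between 0 and 1 and that of Xaf1 from 2.99 to 3.63, and the Zbp1 estimate rests on 3 counts in si-NC and depends on the model's prior count.

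The 3 inflammatory caspases form a cluster on chromosome 8 in the files' build, rn6. Casp1 (chr8:2605743-2614637), Casp4 (chr8:2616391-2651682) and Casp12 (chr8:2658892-2686160) lie in that order on the plus strand. The gaps between them are 1.753 and 7.209 kb and the cluster spans 80.418 kb. None of the 3 passed the test, and their values differed in sign.

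Casp1, the protease that matures interleukin-1 beta and interleukin-18, had only 19, 10 and 12 counts in si-NC and 8, 15 and 23 in si-GPD1L. Its si-GPD1L libraries spread from below the lowest to above the highest si-NC library, and the normalized counts were 13.7 ± 4.45 and 15.1 ± 7.23 (SD, n = 3). The log2 fold change of 0.14 had a 95% interval from -0.78 to 1.06 (edgeR adjusted p = 0.880). This interval held changes from a fall to 0.584 of the control level to a 2.09-fold rise. The sign of the log2 fold change turned in 2 of the fits that left out a library. The value was -0.0062 with si-NC replicate 2 left out and -0.28 in the absence of the library labelled si-GPD1L replicate 3.

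Casp4, the sensor caspase of the non-canonical pathway, had normalized counts of 1858, 1454 and 1386 in si-NC and 1247, 1353 and 1464 in si-GPD1L. Replicate 1 of si-NC was the highest, and the groups overlapped. The means were 1566 ± 255 and 1355 ± 108 (SD, n = 3), with a log2 fold change of -0.21 ± 0.11 (SE, edgeR adjusted p = 0.271).

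Casp12, a caspase linked to stress of the endoplasmic reticulum, had 1071, 819 and 743 normalized counts in si-NC and 1043, 1028 and 1035 in si-GPD1L. The 3 si-GPD1L libraries were nearly equal (SD 7.75), while the si-NC libraries spread widely (SD 172) and replicate 1 lay above all others. The log2 fold change was 0.24 with a 95% interval from -0.0060 to 0.48 (edgeR adjusted p = 0.235). Without si-NC replicate 1 it was 0.41 with an adjusted p of 0.000448, and over all 14 alternatives the adjusted p ran from that value to 0.480, so that 1 library decided whether Casp12 was called.

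Replicate 1 of si-NC was thus the highest control library for all 3 caspases of the cluster. This library also stood apart outside the cluster. Between si-NC libraries over all genes with enough counts, chi-square per degree of freedom was 19.7 and 27.4 for the pairs holding it. For the other si-NC pair it was 8.35. Among the si-NC libraries, Cycs was highest there (1853 normalized counts against 1259 and 1274) and Birc6 lowest (2564 against 3215 and 3601). Within si-NC the ratio of Casp12 to Casp4 spread less than either level did. The TPM of Casp12 divided by that of Casp4 was 0.556, 0.543 and 0.517 in si-NC and 0.807, 0.733 and 0.682 in si-GPD1L. Every si-GPD1L library was above every si-NC library, and the ratio was 1.37 times as high in si-GPD1L (exact two-sided permutation test, p = 0.1, the smallest that 3 against 3 allow). The TPM of Gsdmd divided by that of Casp4 was 0.334, 0.448 and 0.393 in si-NC and 0.663, 0.644 and 0.480 in si-GPD1L, again without overlap and at the same smallest p of 0.1 in the exact permutation test. The TPM of Mlkl divided by that of Ripk3 was 1.12, 1.07 and 1.14 in si-NC and 0.977, 1.28 and 1.25 in si-GPD1L, where the groups overlapped (exact permutation p = 0.6). These 3 ratios were chosen after the values had been seen.

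**Figure D4:**
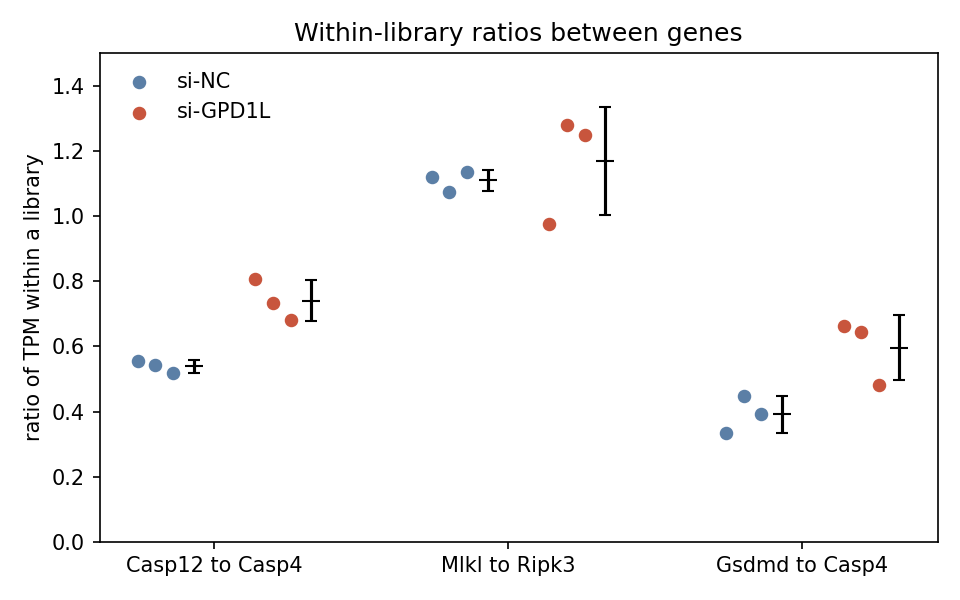
Ratios of the TPM of 2 genes within each library, with 1 point per library (blue si-NC, red si-GPD1L) and bars for the mean ± SD. The Casp12 to Casp4 ratio was 0.539 ± 0.0199 in si-NC and 0.740 ± 0.0629 in si-GPD1L, while the Mlkl to Ripk3 ratios overlap.

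Gsdmd (chr7:116889147-116894134, plus strand) encodes gasdermin D, the substrate that caspase-1 and caspase-4 share. It had 1181, 1241 and 1037 normalized counts in si-NC and 1577, 1659 and 1340.5 in si-GPD1L. Every si-GPD1L library was above every si-NC library, and the rise was 1.32-fold (95% interval 1.15 to 1.52), or 0.40 ± 0.094 on the log2 scale (SE, n = 3 per group, edgeR adjusted p = 0.0254). The call was lost when si-GPD1L replicate 1 was left out (log2 fold change 0.38, adjusted p = 0.129) and when replicate 2 of that group was (0.34, adjusted p = 0.160), and over all 14 alternatives the adjusted p ran from 0.000138 to 0.160. Both annotated transcripts of Gsdmd rose in a fit over all 37822 tested transcripts, by 0.40 and 0.38 on the log2 scale (edgeR adjusted p = 0.0297 and 0.0335). The first held 53.8% to 58.0% of the gene's counts and the second 100% in every library. These rises therefore rest on the same reads as the gene-level value and add no separate evidence.

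Ripk3 (chr15:34470796-34479741, minus strand), the kinase at the center of necroptosis, had 417, 398 and 413 normalized counts in si-NC and 629, 596 and 563 in si-GPD1L. The lowest si-GPD1L library was above the highest si-NC library, whose 3 values were close to each other (SD 10.2). Ripk3 rose 1.46-fold (95% interval 1.28 to 1.65), a log2 fold change of 0.54 ± 0.085 (SE, edgeR adjusted p = 0.00215). The adjusted p was under 0.05 in all 14 alternatives, from 2.29e-06 to 0.0200. An antisense long non-coding gene, LOC102552386, overlaps Ripk3 over 5048 bases and had 9 to 29 counts per library. Whether the counting used strand is not given in the sources used here, so reads of the 2 genes may not be fully told apart.

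Mlkl (chr19:43508416-43535050, minus strand), the executor that RIPK3 phosphorylates, had 583, 533 and 586 normalized counts in si-NC and 768, 953 and 877 in si-GPD1L. All 3 si-GPD1L libraries were above all si-NC libraries. Mlkl rose 1.53-fold (95% interval 1.33 to 1.76), a log2 fold change of 0.61 ± 0.093 (SE, edgeR adjusted p = 0.00167), and the adjusted p was under 0.05 in all 14 alternatives, from 2.11e-08 to 0.0217. It has 3 annotated transcripts, which each held 88.0% to 97.4% of the gene's counts because shared reads were counted for each, and all 3 rose by 0.61 on the log2 scale, so the transcript counts do not say which isoform changed. An antisense non-coding gene overlaps Mlkl over 401 bases and had at most 2 counts.

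Zbp1 (chr3:171276062-171292062, minus strand), the nucleic acid sensor that can activate RIPK3, was barely detected in the si-NC cells. It had 2, 1 and 0 counts in si-NC and 16, 23 and 11 in si-GPD1L. All si-GPD1L libraries were above all si-NC libraries, and the summed counts, 3 against 50, gave a ratio of 16.4 per total count, with an exact 95% binomial interval from 5.31 to 82.3 that covers counting error only. The fitted log2 fold change was 3.88 ± 0.67 (SE, edgeR adjusted p = 0.00414), and the adjusted p was under 0.05 in all 13 alternatives in which the gene could be tested, from 1.68e-07 to 0.0337. It was not tested where at least 10 counts in every library were required. Even in si-GPD1L its level of 0.810 TPM was far below that of Ripk3 (40.4 TPM) and Mlkl (47.0 TPM).

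Of the 16 annotated transcripts of the 10 genes, 15 were tested and 8 rose at an adjusted p under 0.05, all belonging to Gsdmd, Mlkl, Ripk3, Zbp1 and Xaf1, where 3.58% of all tested transcripts rose. None of the 15 fell by this edgeR test, and the 8 were counted on overlapping reads, so they are not independent of the gene counts.

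Xaf1 (chr10:58860647-58872782, plus strand), whose product binds Xiap and counters its block on caspases, rose in si-GPD1L. It had 48.4, 61.4 and 52.7 normalized counts in si-NC and 457, 615 and 539 in si-GPD1L. The lowest si-GPD1L library was far above the highest si-NC library, and the rise was 9.93-fold (95% interval 7.94 to 12.4), a log2 fold change of 3.31 ± 0.15 (SE, n = 3 per group, edgeR adjusted p = 7.95e-09). In all 14 alternatives the log2 fold change lay between 3.20 and 3.41, and the highest adjusted p was 9.80e-07. Its single annotated transcript held all of its counts, and an antisense non-coding gene that overlaps it, LOC102548703, had at most 3 counts in a library.

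Fas and Casp8, the receptor and the initiator caspase of the extrinsic pathway, did not pass the test. Fas (chr1:252589785-252624790, plus strand) had 155, 165 and 143 normalized counts in si-NC and 190, 170 and 155 in si-GPD1L. The highest library was in si-GPD1L and the groups overlapped. For Fas, the log2 fold change was 0.15 with a 95% interval from -0.13 to 0.43 (edgeR adjusted p = 0.540). Casp8 (chr9:65614142-65662624, plus strand) had 200, 179 and 163 normalized counts in si-NC and 176, 222 and 214 in si-GPD1L, again overlapping. For Casp8, the log2 fold change was 0.18 with a 95% interval from -0.11 to 0.46 (edgeR adjusted p = 0.461). The upper ends of the intervals, 1.35-fold for Fas and 1.38-fold for Casp8, lie above the 1.32-fold rise of Gsdmd.

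A wider list of 75 cell-death genes, grouped by role, placed these 10 in their pathways. Of the 75, 60 were tested, 11 rose and 0 fell at an adjusted p under 0.05, beside shares of 4.03% and 2.33% of all tested genes. The list was written with earlier results of these data known, and Aim2, 1 of the 11, entered the test only through si-GPD1L. These counts are therefore not an independent test. The counts by role given below stand beside the same shares and carry the same limit. At an unadjusted p under 0.05, 20 of the 60 were higher and 4 lower. Of all 14852 tested genes, 1696 were higher and 1628 lower at that threshold. For the listed genes, DESeq2 called 11 higher and 0 lower and edgeR's exact test 13 higher and 0 lower. The median log2 fold change of the 60 was 0.10. Only 6 rose when si-GPD1L replicate 1 was left out and 7 when replicate 2 of that group was, so the size of this count depends on single libraries. Without the library labelled si-GPD1L replicate 3, 9 rose.

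Of the listed genes, Aim2, Eif2ak2 and Adar passed both thresholds. Aim2, the inflammasome sensor of cytosolic DNA, had 3.0, 5.3 and 2.0 normalized counts in si-NC and 100.3, 110.0 and 81.8 in si-GPD1L. All si-GPD1L libraries were above all si-NC libraries, the fitted log2 fold change was 4.81 ± 0.33 (SE, edgeR adjusted p = 6.9e-07), and like Zbp1 it entered the test only through si-GPD1L. Of the 5 other tested inflammasome genes, 0 passed by edgeR or DESeq2, and 1 (Nlrp1a) had an unadjusted p under 0.05. Nlrp1a had a log2 fold change of 0.29 (adjusted p = 0.111), Txnip 0.15, Nek7 -0.12 and the adaptor Pycard -0.0066 (adjusted p = 0.991). Nlrc4, Mefv and Naip6 were below the filter, and Nlrp6 was at 0 counts in all libraries.

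Of 4 genes listed as double-stranded RNA sensors, 3 rose. Eif2ak2, the kinase PKR that stops translation on double-stranded RNA, went from 787 ± 96.2 to 3098 ± 214 normalized counts (SD, n = 3; log2 fold change 1.98, edgeR adjusted p = 1.40e-08). Adar, which edits double-stranded RNA and limits its sensing rather than being a sensor itself, went from 996 ± 163 to 3148 ± 172 (1.66, adjusted p = 3.61e-07). Tlr3, the endosomal receptor that signals through TRIF to RIPK3, went from 208 ± 10.7 to 370.3 ± 23.4 (0.83, adjusted p = 0.000251). In each of the 3 genes every si-GPD1L library lay above every si-NC library, a pattern seen in 15.1% of all tested genes. The TRIF gene Ticam1 had a log2 fold change of -0.067 and did not pass.

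**Figure D5:**
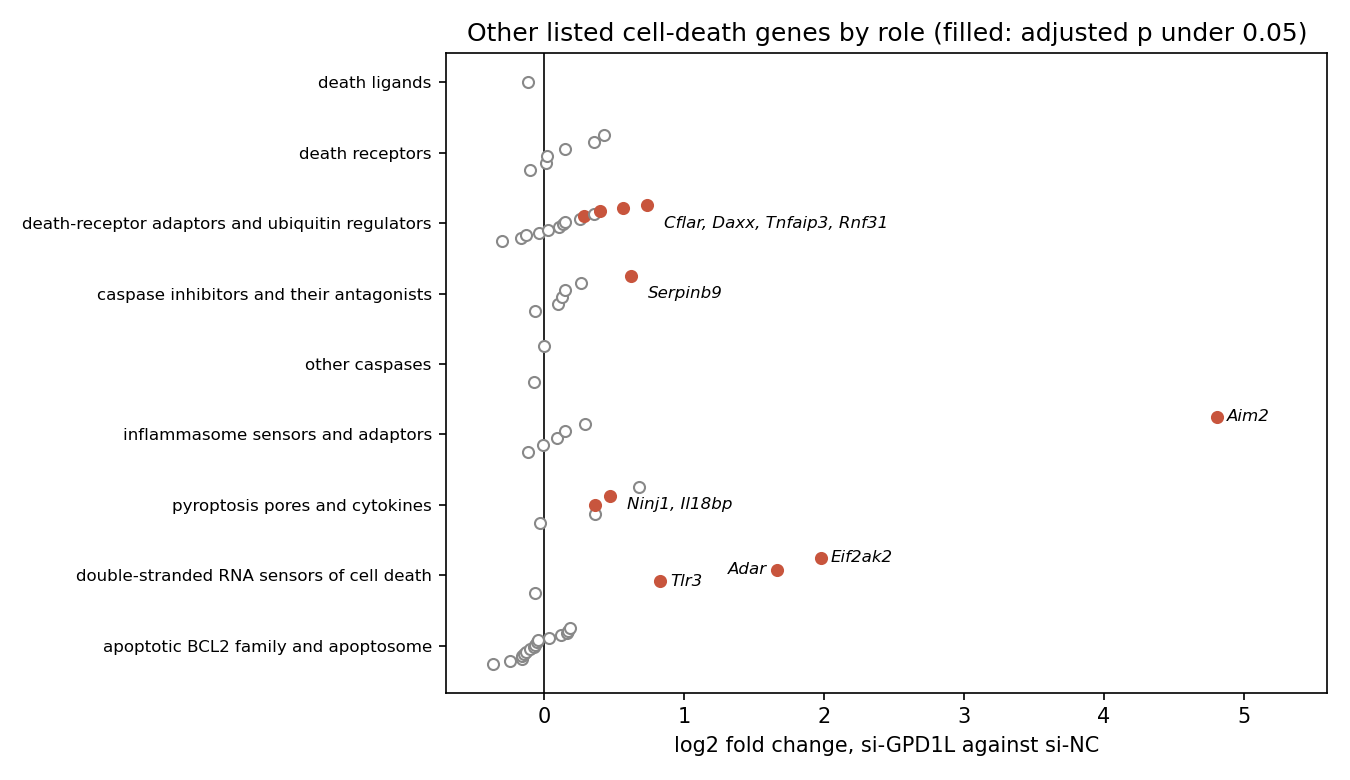
Log2 fold changes of the 60 tested genes of the wider list, by role, with filled red points where edgeR's adjusted p was under 0.05 and open points elsewhere. The 11 named genes rose, and Aim2, Eif2ak2 and Adar alone lie above a log2 fold change of 1.

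Of 14 death-receptor adaptors and ubiquitin regulators, 4 rose and 0 fell at an adjusted p under 0.05 by edgeR's quasi-likelihood test. At an unadjusted p under 0.05, 6 were higher and 1 lower, beside 1696 higher and 1628 lower of all 14852 tested genes. The lower gene was Fadd, at a log2 fold change of -0.30 (edgeR adjusted p = 0.214). Rnf31, the catalytic subunit of the linear ubiquitin ligase, went from 367 ± 23.3 to 610.0 ± 27.5 normalized counts (SD, n = 3; log2 fold change 0.73, edgeR adjusted p = 0.000238). Smaller rises were found for Tnfaip3, the ubiquitin-editing enzyme A20 (0.56, adjusted p = 0.0418), Daxx, which binds Fas (0.40, adjusted p = 0.0249), and Cflar, the caspase-8 regulator c-FLIP (0.28, adjusted p = 0.0420). None of the 6 other death receptors passed by edgeR's quasi-likelihood test or DESeq2. Tnfrsf21 at 0.42 (adjusted p = 0.0643) and Tnfrsf1b at 0.36 (adjusted p = 0.0868) had an unadjusted p under 0.05 and were called by edgeR's exact test, where 2 receptors passed. Tnfrsf1a, the main TNF receptor, was at -0.10 (adjusted p = 0.433), and Tnfrsf25 at 0.15.

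The listed death ligands other than Tnfsf12 were scarce in these cultures. Tnfsf12 had a mean of 34.4 TPM in si-NC and 33.7 TPM in si-GPD1L. It was the only ligand tested, at a log2 fold change of -0.12 (edgeR adjusted p = 0.525). Faslg, the ligand of Fas, had 1, 5 and 4 counts in si-NC and 5, 9 and 1 in si-GPD1L. Tnfsf10, which encodes TRAIL, had 0 counts in each si-NC library and 1, 9 and 7 in si-GPD1L and was not tested. Tnf and Lta had at most 1 count in any library.

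Among the caspase inhibitors and their antagonists, 1 of 6 rose. Serpinb9, a serpin that inhibits granzyme B, went from 1360.4 ± 255 to 2087 ± 107 normalized counts (SD, n = 3; log2 fold change 0.62, edgeR adjusted p = 0.00543). Xiap, the target of the Xaf1 protein, was at 0.12 (adjusted p = 0.377), Birc6 at 0.26 and Diablo at 0.10. Of the other caspases listed, Casp2 at -0.073 and Casp9 at -0.0046 did not pass, Casp6 had at most 2 counts in a library and Casp14 had 0.

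Of the other pyroptosis pores and cytokines, 2 of the 5 tested rose. Ninj1, which ruptures the plasma membrane after gasdermin pores have formed, went from 1881 ± 50.7 to 2423 ± 138 normalized counts (SD, n = 3; log2 fold change 0.36, edgeR adjusted p = 0.00847). Il18bp, the decoy that binds interleukin-18, rose by 0.47 (adjusted p = 0.0484). The interleukin-18 gene itself, Il18, had 6.9 to 10.6 normalized counts in the control libraries and 12.7 to 18.0 in the si-GPD1L libraries and did not pass (0.68, adjusted p = 0.324), nor did Il1rn (0.36, adjusted p = 0.317). Il1a, Il1b and Gsdma were below the filter, with at most 5 counts in a library.

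In the apoptotic BCL2 family and the apoptosome, 0 of 16 tested genes passed by edgeR's quasi-likelihood or exact test or by DESeq2. At an unadjusted p under 0.05 there were 6 (3 higher and 3 lower), beside 1696 higher and 1628 lower of all 14852 tested genes. Cycs, the gene of cytochrome c, had the lowest adjusted p, at a log2 fold change of -0.37 (adjusted p = 0.109), and was called lower only without a filter on low counts and without si-NC replicate 3. Bbc3, which encodes PUMA, was at -0.25 (adjusted p = 0.130), the anti-apoptotic Bcl2l1 at 0.16 (adjusted p = 0.170) and Apaf1, the scaffold of the apoptosome, at 0.19 (adjusted p = 0.186). Bik and Hrk were below the filter.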

How the data were processed

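mRNA from rat atrial fibroblasts (3 si-NC and 3 si-GPD1L libraries, poly(A) selected, paired-end Illumina reads) was sequenced by the study. The authors deposited whole-number read counts for 40154 genes and 55760 transcripts, without normalization, and TPM, which a recalculation showed to be the counts per base of gene length, scaled to an equal total in all libraries. The submitters' processing notes name bcl2fastq, HISAT2 2.1.0, HTSeq 0.12.4 and the rn6 build, and the strand setting of the counting is not given in the sources used here. Tables of the authors' own comparison (fold changes, p-values and q-values) and of their GO and KEGG enrichment were not used.

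Gene counts were filtered by filterByExpr (minimum count 10), normalized by TMM and tested in R 4.3.3 with edgeR 4.0.16 (quasi-likelihood F test), with Benjamini-Hochberg adjustment over all 14852 tested genes. Transcript counts were tested in the same way. Calls used the study's thresholds or an adjusted p under 0.05 alone. The standard error was the absolute log2 fold change divided by the square root of F. TPM was used to compare levels between genes and for the within-library ratios, which were compared between the groups by an exact permutation test. DESeq2 1.42.0, edgeR's exact test, other normalizations and filters, a replicate block and leaving out each library were alternatives, and the procedure was tested on simulated data.

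Totals of 16892255 to 20149732 counts per library limit genes of few counts. The binomial interval on the summed Zbp1 counts covers counting error only. The intervals of the fold changes come from the quasi-likelihood fit and include the spread between these libraries. The genes and lists were chosen with earlier results of these data known. Symbols were matched exactly, by gene ID or, for Xaf1, without regard to case. Every one of the 10 genes and Gpd1l was named, together with up to 4 genes per role of the wider list with the smallest adjusted p, any listed gene past both thresholds, and undetected genes. A few cell-death genes are not reported here and were kept out of the wider list. Pycard, Ticam1, Tnfsf10 and Fadd were named outside that rule or for their role, after their values were seen.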

Additional observations from a re-analysis of the deposited data

How the results depend on the processing

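The 5 genes called higher (Gsdmd, Mlkl, Ripk3, Zbp1 and Xaf1) were the same under DESeq2 size factors, upper-quartile normalization, DESeq2's Wald test, edgeR's exact test, no filter beyond 1 count and summed transcript counts. Zbp1 and Casp1 could not be tested when every library needed at least 10 counts, which left 1 gene (Xaf1) past both thresholds against 2, and with no fold change threshold 5 passed. Leaving out 1 library gave between 4 and 6 called genes, with Gsdmd lost and Casp12 gained as given in the report. The log2 fold change of Casp1 ran from -0.28 to 0.44 when 1 library was left out, with the sign turned for si-NC replicate 2 (-0.0062) and si-GPD1L replicate 3 (-0.28), and the log2 fold changes of the other 9 genes kept their direction in every alternative run. Among the 75 listed cell-death genes, between 6 and 11 rose when 1 library was left out, against 11 in all 6 libraries, and the number that fell was between 0 and 1. With no filter on low counts 1 fell (Cycs). The same-numbered si-NC and si-GPD1L libraries did not deviate together (correlations of -0.014, -0.0060 and 0.043 across genes), so the numbers were not taken as pairs. With the replicate block the same 5 genes were called, 8 listed genes rose, 223 genes passed both thresholds and the Gpd1l log2 fold change was -0.32. Over all alternatives, 164 to 359 genes passed both thresholds. Depth limits the statements on Casp1 and Zbp1, whose libraries held at most 23 counts.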
